A study of Rattus norvegicus with 4 samples.

Results

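The genes described here encode the proteins of the mitochondrial ribosome. They were chosen by name: every probe set with 1 annotated symbol that starts with Mrpl or Mrps followed by a digit. The rule found 73 genes of 14217, 46 of the large subunit (Mrpl) and 27 of the small subunit (Mrps), measured by 97 probe sets. Each gene is given by its brightest probe set, the one with the highest mean log2 signal over the arrays, and the other sets of a gene are described separately.

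Female BioBreeding rats were compared at day 65. The DRlyp/lyp pool (diabetes prone, titled DP AA4+) came from rats that carry the lyp allele of Gimap5 on both chromosomes, and the DR+/+ pool (diabetes resistant, titled DR AA4+) from rats with the normal allele. In both, AA4+ cells, described as mast cells, were taken from the lymph node that drains the pancreas. For each, RNA of 8 animals was pooled, and the pool was amplified and hybridised in duplicate. This gave 4 arrays, called prone arrays 1 and 2 and resistant arrays 1 and 2 below. The 2 arrays of a pool are separate amplifications of 1 RNA, so every p-value below compares the 2 pools and measures the spread between amplifications, not between animals or strains. The comparison asks how these cells differ between prone and resistant rats.

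Mitochondria hold their own ribosomes, which make the few respiratory chain proteins encoded in mitochondrial DNA. Their ribosomal RNA comes from that DNA, whereas all of their proteins are encoded in the nucleus, made in the cytosol and imported. Some of these proteins descend from bacterial ribosomal proteins and others are found only in mitochondrial ribosomes. The small subunit holds the decoding site that reads the mRNA, and the large subunit joins the amino acids and is held at the inner membrane, into which most products are inserted. As background, mast cells keep respiratory mitochondria beside glycolysis.

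Signals are in the deposited linear units, and a probe set counted as measured when it lay above 28.4, the median of all values, on at least 2 of the 4 arrays. All 73 genes lay above it on all 4 arrays, with signals from 46.6 to 1756.8, so no member owed its place in the test to 1 pool. The 12 mast cell markers matched summed to 6677.5 and 6928.8 on the DRlyp/lyp arrays against 4662.3 and 4752.1 on the DR+/+ arrays. The 2 brightest weighed most in these sums. They were Srgn (3748.6 and 4098.6 against 2846.0 and 2944.8) and Mcpt1 (1664.8 and 1601.9 against 668.9 and 655.4). Of the 10 tested, 4 were called higher and 2 lower, where 20.9% and 21.1% of all genes were. The higher ones included the protease Mcpt1 (2.47-fold) and the interleukin 33 receptor Il1rl1 (119.9 and 113.8 against 10.3 and 12.1). Il1rl1 lay above 28.4 only on the DRlyp/lyp arrays, so it entered the test through that pool alone. The lower ones were the tryptases Tpsab1 (3.65-fold) and Tpsb2 (2.90-fold). The proteases Cpa3 (425.8 to 527.8 over the 4 arrays) and Cma1 (267.8 to 305.7) were not called, and Kit, the stem cell factor receptor that defines mast cells, did not exceed 11.3. Markers of other cell types differed as well. The summed signal of 12 T cell markers was 9769.5 on both DRlyp/lyp arrays against 2166.1 and 2358.3 on the DR+/+ arrays. Of the 12, 11 were called higher and 1, Cd4 (20.7 and 10.6 against 43.7 and 50.3), lower. Cd4 lay above 28.4 only on the DR+/+ arrays, so it entered the test through that pool alone. Rats with the lyp allele, however, are known to lack most T cells. No measurement here checks which pool carried which genotype, so every direction below rests on the group labels. The summed signal of 9 exocrine pancreas markers was 8456.1 and 8633.4 against 212 and 212.8, and that of 10 proliferation markers 6197.2 and 6116.4 against 4227.4 and 4533.9. The B cell markers summed to 7736.3 and 8010.9 against 10503.7 and 11599.6, and the macrophage markers to 7682.6 and 7824.6 against 12444.4 and 13098.8. On every array each of these sums exceeded that of the mast cell markers. All of the 6 B cell markers and 7 of the 10 macrophage markers had both DRlyp/lyp arrays below both DR+/+ arrays. This held for 36.4% of all genes. Of the B cell markers 4 were called lower, and Ms4a1 and Cd22 were not called. The macrophage markers Cd68 and Mrc1 were called higher and Cd163 was not called. No marker of these 5 lists was at the floor of 6.8 on all arrays. The 3′ minus 5′ log2 signal of the beta-actin control, which grows as the amplified RNA gets shorter, was 4.43 and 4.55 in the DRlyp/lyp pool and 3.01 and 3.10 in the DR+/+ pool. The part that cell makeup, cell division or RNA length had in the differences below was not tested, and fewer cells of a type cannot be told apart from less RNA per cell.

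More mitochondrial ribosomal protein genes were higher in the DRlyp/lyp pool than were lower. By limma, with p-values adjusted (Benjamini-Hochberg) across the 16047 probe sets tested and 0.05 as the threshold, 25 of the 73 genes (34.2%) were called higher, against 20.9% of all 9337 genes tested, and 7 (9.59%) were called lower, against 21.1%. The other 41 were not called, 24 with a positive and 17 with a negative difference. The median log2 difference, DRlyp/lyp minus DR+/+, was 0.20 over the members and 0.00 over all genes. Both DRlyp/lyp arrays lay above both DR+/+ arrays for 39 members (35.4% of all genes did so, or 3306) and below both for 15 (36.4% of all genes). Differences were small by the brightest sets: 2 genes, Mrps6 and Mrpl37, were called and at least 2-fold higher, where 5.09% of all genes were. None of the 73 was 2-fold lower by its brightest set at any p (lowest -0.72), where 4.59% of all genes were called and at least 2-fold lower. A dimmer Mrpl57 set, described below, differed by -1.08.

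**Figure D1:**
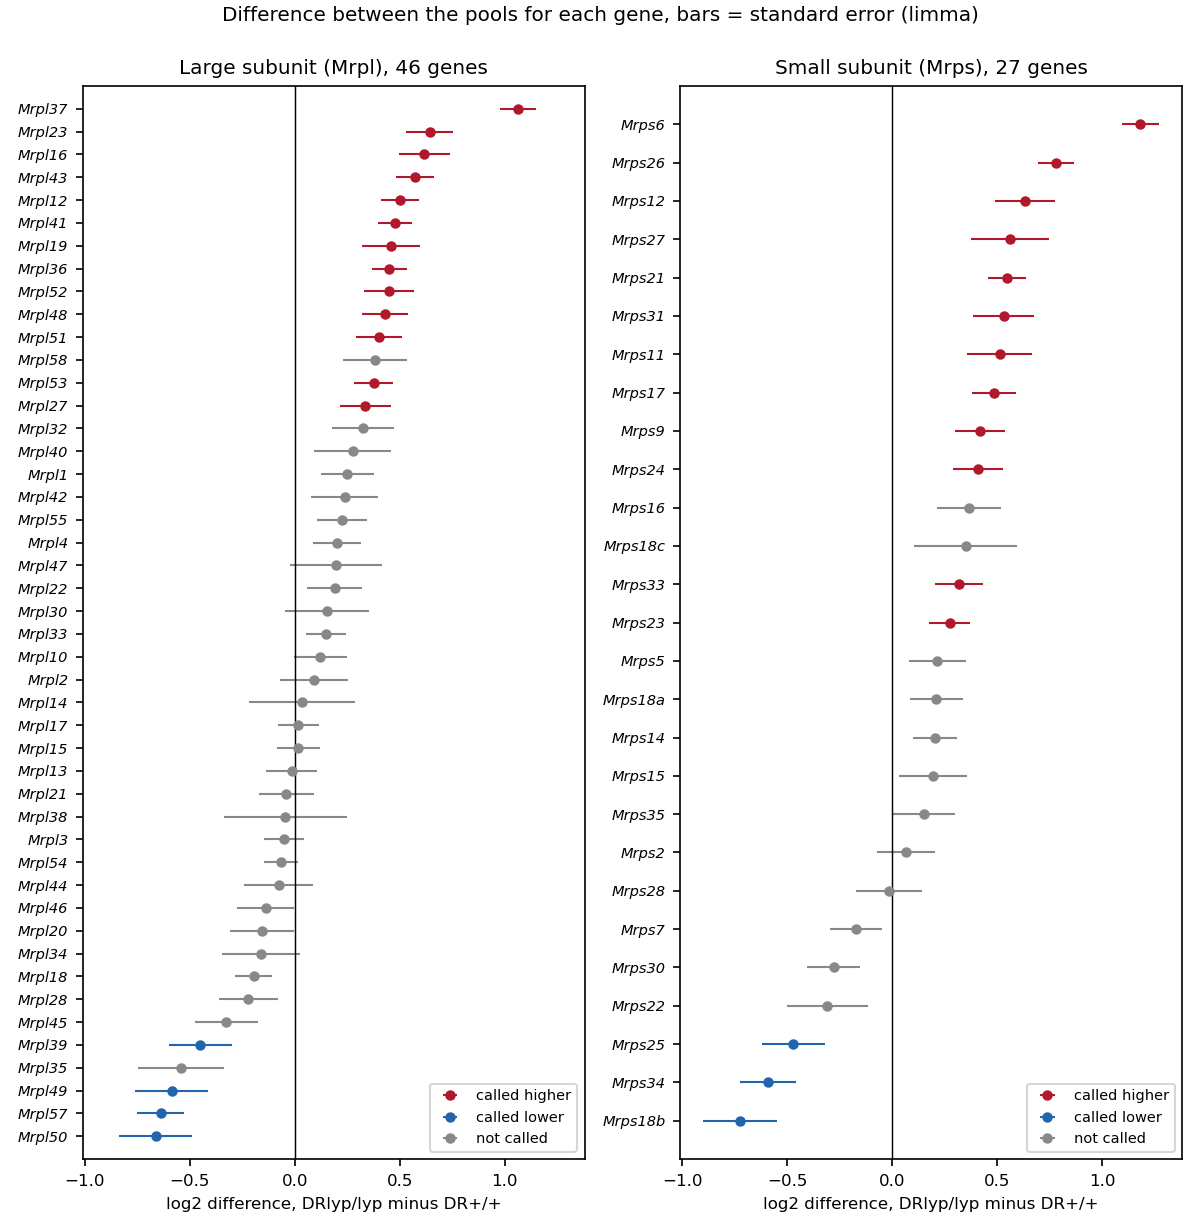
Log2 difference between the pools (x axis, DRlyp/lyp minus DR+/+) for each of the 46 large subunit and 27 small subunit genes (y axis, sorted within each subunit); points are limma estimates from 2 arrays a pool, bars are standard errors, red and blue mark genes called higher and lower. Mrpl37 and Mrps6 stand at the top of their subunits with 1.06 and 1.18, and the other called genes lie between -0.72 and 0.78.

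These counts depended on single arrays, on the scaling and on the fit. Without prone array 1, 13 members were called higher (11.3% of all genes) and 3 lower (12.4%), and without prone array 2, 11 higher (12% of all genes) and 3 lower (13.7%). Without resistant array 1, 21 were higher (19.3% of all genes) and 4 lower (18.7%), and without resistant array 2, 21 higher (20% of all genes) and 7 lower (18.6%). With each array centred on its own median, which moved the median of all genes by -0.11, the split was 12 higher and 10 lower, against 14.4% and 26.1% of all genes. The members' median was then 0.09; centring moves all genes alike, so its distance from the median of all genes is the same by construction. Without the filter on dim probe sets 9 members were higher (3.62% of all genes) and 0 lower (3.71%). At an unadjusted p under 0.05, limma without the filter gave 24 higher and 7 lower. The share of all genes at that threshold was not counted. Without an intensity trend in limma's variances 9 were higher (11.9% of all genes) and 2 lower (12.8%). All 73 members were tested both with median centring and without an intensity trend. In these settings the share of members called higher was only slightly above that of all genes, so the excess was nearly lost. The share called lower stayed below that of all genes. With the filter raised to the 75th percentile of all values, which keeps brighter genes, 64 members were tested. Of these, 25 were higher, against 26.9% of all genes, and 7 lower, against 28.4%. With the replicate number as a block, 26 were higher (23.3% of all genes) and 8 lower (23.4%). Over all 13 alternatives, left-out arrays included, 4 higher calls (Mrpl12, Mrpl16, Mrpl43 and Mrps6) and 0 lower calls were kept in every one; with an array left out alone, 10 higher and 1 lower were.

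Against 20.9% of all genes called higher and 21.1% lower, the 2 subunits were counted apart. In the small subunit 12 of 27 genes (44.4%) were called higher and 3 (11.1%) lower, with a median difference of 0.27. In the large subunit 13 of 46 (28.3%) were called higher and 4 (8.70%) lower, with a median of 0.15. The large subunit's median therefore lay 0.12 below that of the small subunit; a score over members chosen by name was given no p-value, and whether the subunits differ was not tested. On single arrays, the median deviation of small subunit genes from their own means was 0.09 and 0.14 in the DRlyp/lyp pool and -0.18 and -0.12 in the DR+/+ pool, and that of large subunit genes was 0.07 and 0.11 against -0.07 and -0.04. For both subunits the 2 arrays of a pool lay on the same side of 0, and the small subunit lay farther from it on each array. The means are taken over these same 4 arrays, so opposite sides for the pools largely restate the pool difference and are no separate check. The symbols do not quite follow the structure, since Mrps18a and Mrps30 sit in the large subunit of mammalian mitochondrial ribosomes. With these moved, the medians were 0.32 for 25 small subunit genes and 0.15 for 48 large subunit genes, a gap of -0.17. With median centring and subunits by symbol, 7 large and 5 small subunit genes were called higher (14.4% of all genes). In that setting 7 and 3 were called lower (26.1% of all genes).

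**Figure D2:**
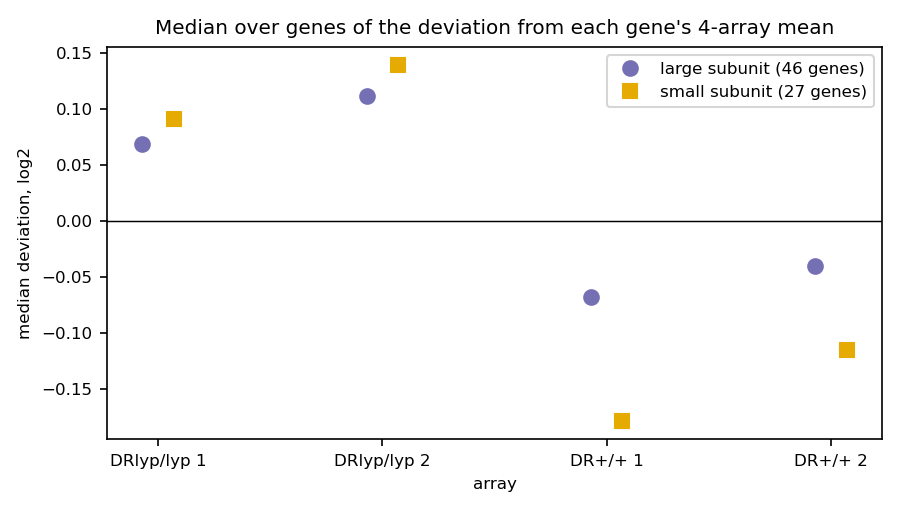
Median over genes of the log2 deviation from each gene's mean over the 4 arrays (y axis), for each array (x axis), with circles for the 46 large subunit and squares for the 27 small subunit genes. The DRlyp/lyp arrays lie between 0.07 and 0.14 and the DR+/+ arrays between -0.18 and -0.04.

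Among small subunit proteins with bacterial relatives, Mrps6 differed most of all 73 members. Its protein belongs to the family of bacterial S6, which lies at the platform of the subunit beside S18. Mrps6 read 1618.2 and 1680.0 on the DRlyp/lyp arrays and 675.8 and 780.8 on the DR+/+ arrays. The pools were well apart, and the difference of 1.18 ± 0.09 (SE) was 2.27-fold (adjusted p = 1.99e-06). Mrps21, of the S21 family, read 960.7 and 962.9 against 631.6 and 685.7 (1.46-fold, adjusted p = 0.000597). Both calls stood with each of the 4 arrays left out in turn, a fit that assumes a lone array varies as the others do, but that of Mrps21 was lost without the filter on dim probe sets (adjusted p = 0.0516).

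Mrps12 encodes the protein of the decoding site whose bacterial form is the classic seat of streptomycin resistance. It read 631.6 and 866.7 against 439.4 and 517.5, a difference of 0.63 ± 0.14 (adjusted p = 0.00451). The 2 DRlyp/lyp arrays were far apart, and the call was lost without prone array 2 (0.41, adjusted p = 0.102) and without resistant array 1 (0.52, adjusted p = 0.0522). Mrps17 read 1605.8 and 1756.8 against 1067.0 and 1350.6 (0.48 ± 0.10, adjusted p = 0.00314), a call lost without prone array 2 (adjusted p = 0.062). Mrps11, a platform protein, read 245.8 and 238.2 against 157.1 and 183.2 (0.51 ± 0.16, adjusted p = 0.0217). Its call was lost without prone array 1 (adjusted p = 0.158), prone array 2 (adjusted p = 0.12) or resistant array 1 (adjusted p = 0.0707). Mrps9 and Mrps24, the latter the relative of bacterial S3 at the mRNA entrance, were also called higher, by 0.42 and 0.41, and neither call stood without either DRlyp/lyp array (adjusted p = 0.0846 and 0.16 for Mrps9, 0.157 and 0.0959 for Mrps24). Mrps24 was also lost without resistant array 1 (adjusted p = 0.099).

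Of the small subunit proteins known only from mitochondria, Mrps26 differed most. It read 1131.6 and 1179.7 against 678.0 and 666.6, 1.72-fold higher (0.78 ± 0.09, adjusted p = 3.17e-05), and kept the call with each array left out, but not with its probe sets averaged (adjusted p = 0.0724). Mrps31 read 257.4 and 269.3 against 186.9 and 177.6 (0.53 ± 0.15, adjusted p = 0.0127), a call lost without prone array 1 (adjusted p = 0.0887) or prone array 2 (adjusted p = 0.123). Mrps27, a pentatricopeptide repeat protein, read 182.3 and 157.3 against 123.2 and 107.1 (0.56 ± 0.19, adjusted p = 0.0318). Without prone array 1, prone array 2 or resistant array 2 its adjusted p was 0.25, 0.094 and 0.0937. Mrps33 and Mrps23 were called higher by 0.32 and 0.27, close to the threshold (adjusted p = 0.0424 and 0.044). Mrps23 was lost with any of the 4 arrays left out (adjusted p from 0.0522 to 0.255), and Mrps33 with prone array 2 (adjusted p = 0.427), resistant array 1 (adjusted p = 0.149) or resistant array 2 (adjusted p = 0.0736) left out.

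The 3 lower calls of the small subunit follow. Mrps34, a mitochondria-only protein whose loss causes a respiratory chain disorder, read 273.2 and 248.0 in the DRlyp/lyp pool against 362.1 and 424.7 (1.51-fold lower, adjusted p = 0.00472), a call lost without prone array 2 (-0.52, adjusted p = 0.0704). Mrps25, also found only in mitochondria, read 196.2 and 173.2 against 266.5 and 244.6 (1.39-fold lower, adjusted p = 0.0282). Its call was lost without prone array 1 (adjusted p = 0.0852), prone array 2 (adjusted p = 0.213) or resistant array 1 (adjusted p = 0.0896).

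The third was Mrps18b, 1 of 3 relatives of the single bacterial S18. Mrps18b read 168.1 and 225.9 against 287.4 and 360.8, 1.65-fold lower (-0.72 ± 0.18, adjusted p = 0.00662). The call was lost without prone array 1 (-0.51, adjusted p = 0.114) or resistant array 2 (-0.56, adjusted p = 0.0609). Its relatives were not called. Mrps18a read 417.7 and 437.9 against 337.9 and 404.0 (0.21 ± 0.13, adjusted p = 0.207), with both DRlyp/lyp arrays above both DR+/+ arrays. Mrps18c read 80.0 and 114.7 against 78.1 and 72.3 (0.35 ± 0.25, adjusted p = 0.286), also without overlap. The difference between these relatives was not tested.

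**Figure D3:**
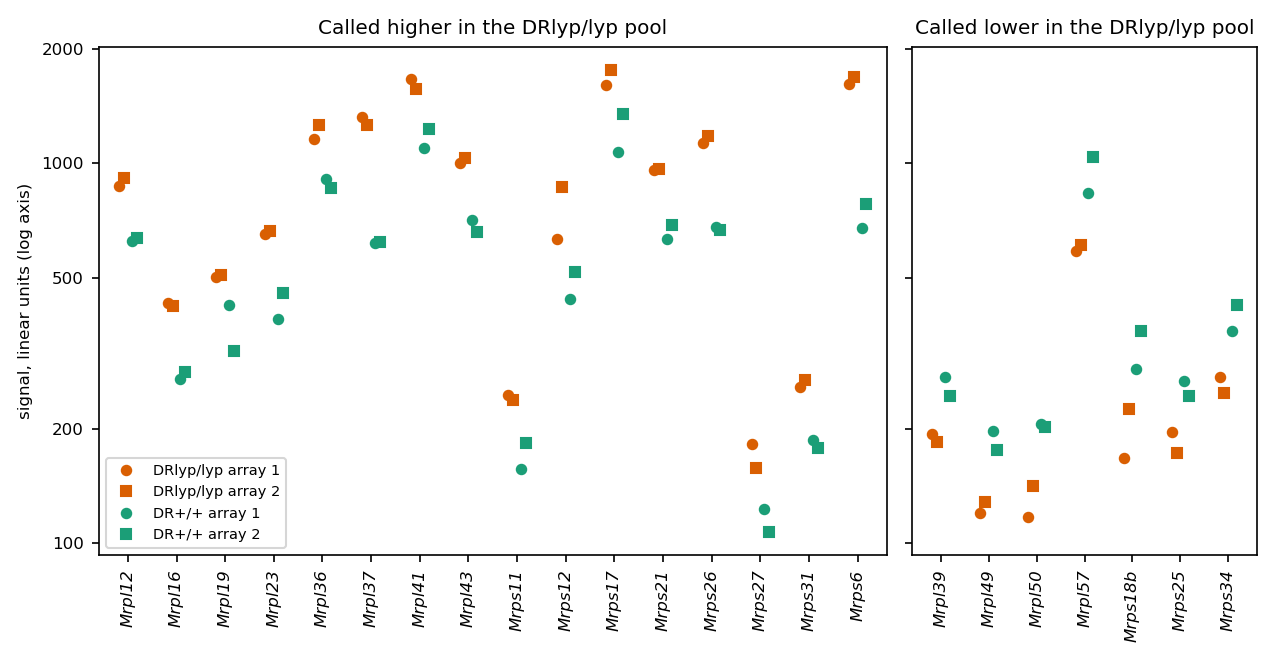
Signal in linear units on a log axis (y axis) on each of the 4 arrays for the called genes that have the largest differences in each subunit (x axis); orange is DRlyp/lyp, green DR+/+, and circles and squares are the first and second array. In the left panel both orange points lie above both green points for each gene, as for Mrps6 (1618.2 and 1680.0 against 675.8 and 780.8), and in the right panel both lie below, as for Mrpl57 (585.9 and 609.1 against 834.7 and 1035.7).

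In the large subunit the largest difference was that of Mrpl37, a protein known only from mitochondrial ribosomes. It read 1320.2 and 1263.3 on the DRlyp/lyp arrays against 617.0 and 619.2 on the DR+/+ arrays, 2.09-fold higher (1.06 ± 0.08, adjusted p = 2.93e-06). Mrpl43 (998.3 and 1031.3 against 706.6 and 658.6, 1.49-fold, adjusted p = 0.000391) and Mrpl41 (1664.3 and 1566.0 against 1097.1 and 1226.1, 1.39-fold, adjusted p = 0.000741) are also mitochondria-only proteins. Mrpl41 has in addition been described as a partner of Bcl2. All 3 kept their calls with each array left out. Mrpl37 lost it with probe sets averaged (adjusted p = 0.135), and Mrpl41 without the filter (adjusted p = 0.0964) or without an intensity trend (adjusted p = 0.0606).

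Among large subunit proteins with bacterial relatives, Mrpl23, which lies at the mouth of the exit tunnel, read 649.8 and 664.2 against 389.7 and 454.5 (0.64 ± 0.11, adjusted p = 0.000836). Mrpl16 read 427.6 and 420.2 against 270.3 and 282.2 (0.62 ± 0.12, adjusted p = 0.00181). Mrpl12 forms the mobile stalk that recruits translation factors and has been reported to bind the mitochondrial RNA polymerase. It read 868.0 and 914.2 against 622.7 and 635.1 (0.50 ± 0.09, adjusted p = 0.00107), whereas Mrpl10, which anchors the stalk, read 307.4 and 298.4 against 277.8 and 278.5 (0.12 ± 0.13, adjusted p = 0.482). Mrpl36 read 1159.6 and 1257.5 against 907.3 and 860.4 (0.45 ± 0.08, adjusted p = 0.00138). The calls of Mrpl23, Mrpl16, Mrpl12 and Mrpl36 stood with each array left out. Without the filter those of Mrpl23 (adjusted p = 0.0841) and Mrpl36 (adjusted p = 0.0756) were lost, and that of Mrpl36 also without an intensity trend (adjusted p = 0.0611). Mrpl19 read 502.1 and 507.6 against 422.9 and 319.7 (0.46 ± 0.14, adjusted p = 0.0206), a call lost without prone array 1 (adjusted p = 0.13), prone array 2 (adjusted p = 0.137) or resistant array 2 (adjusted p = 0.102).

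The remaining 5 higher calls of the large subunit lay between 0.34 and 0.45, and each was lost with at least 1 array left out. Mrpl48, of the central protuberance, differed by 0.43, Mrpl52 by 0.45 and Mrpl53 by 0.38. All 3 were lost without prone array 1 (adjusted p = 0.0942, 0.135 and 0.0832 in that order) and without prone array 2 (0.0739, 0.0735 and 0.0649). Mrpl51 (0.40) was lost without prone array 1 (adjusted p = 0.171) or resistant array 2 (adjusted p = 0.0661). Mrpl27, which reaches toward the catalytic centre, differed by 0.34 and was lost without prone array 1, prone array 2 or resistant array 2 (adjusted p = 0.151, 0.265 and 0.167).

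The 4 lower calls of the large subunit were all of mitochondria-only proteins. They made up 21.1% of the 19 genes of that class tested, the same as the 21.1% of all genes called lower. Mrpl57 read 585.9 and 609.1 against 834.7 and 1035.7 (1.56-fold lower, adjusted p = 0.000826). It kept its call with each array left out, but not without the filter (adjusted p = 0.131) or without an intensity trend (adjusted p = 0.0502). Mrpl50 read 117.5 and 141.5 against 205.8 and 202.5 (1.58-fold lower, adjusted p = 0.00984), a call lost without prone array 1 (adjusted p = 0.123). Mrpl49 read 120.1 and 128.2 against 197.4 and 175.8 (-0.59 ± 0.17, adjusted p = 0.0187) and Mrpl39 193.9 and 184.3 against 273.3 and 243.8 (-0.45 ± 0.15, adjusted p = 0.0312). Both were lost without prone array 1 (adjusted p = 0.136 for Mrpl49 and 0.129 for Mrpl39), prone array 2 (0.086 and 0.182) or resistant array 1 (0.0706 and 0.102).

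By origin, 13 of 44 proteins with bacterial relatives (29.5%) were called higher and 1, Mrps18b, lower (2.27%). Of 29 mitochondria-only proteins 12 (41.4%) were called higher and 6 (20.7%) lower. Over all genes tested the shares were 20.9% and 21.1%, so the lower share of the mitochondria-only class was near that of all genes. The medians were 0.20 and 0.24, and the quartiles ran from 0.01 to 0.41 in the first class and from -0.31 to 0.43 in the second. The upper quartiles were close and the lower one was lower in the mitochondria-only class. Whether the classes differ was not tested.

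Just outside the threshold lay Mrpl35 (-0.54, adjusted p = 0.0538), Mrpl58, a peptidyl-tRNA hydrolase built into the ribosome (0.38, adjusted p = 0.064), and Mrps16 (0.37, adjusted p = 0.0741). Closest to 0 were Mrpl13 (354.3 and 364.2 against 377.9 and 348.2), Mrps28 (241.6 and 221.7 against 211.2 and 258.7) and Mrpl15 (506.5 and 503.0 against 491.5 and 505.8). The pools overlapped for each of these 3. Mrpl45, which holds the ribosome at the inner membrane, read 233.9 and 218.1 against 314.3 and 254.7 (-0.33 ± 0.15, adjusted p = 0.109).

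The other probe sets of the members gave a mixed check. Several sets passed the filter for 13 genes. In 6 of them every other tested set had the sign of the brightest one, and in 7 at least 1 had the opposite sign. Mrpl57 and Mrpl52 were called the same way by a second set, where 19.3% of all probe sets tested were called higher and 19.9% lower. The second Mrpl57 set read 81.2 and 77.2 against 149.4 and 186.3 (-1.08 ± 0.20, adjusted p = 0.00144), and the second Mrpl52 set 289.0 and 341.5 against 235.1 and 245.0 (0.39 ± 0.14, adjusted p = 0.046).

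For 4 called genes another set had the opposite sign without being called. They were Mrpl50 (second set 0.35 ± 0.22), Mrpl49 (0.06 ± 0.25), Mrps27 (-0.78 ± 0.37) and Mrpl51. The second Mrpl51 set read 643.8 and 616.1 against 644.7 and 620.2, a difference of -0.01 ± 0.10 where the brightest gave 0.40 ± 0.11. In 2 genes a dimmer set was called although the brightest was not. For Mrps14 the brightest read 543.8 and 521.8 against 466.3 and 458.1 (0.20 ± 0.10, adjusted p = 0.143) and the second 392.2 and 399.0 against 565.6 and 550.9 (-0.50 ± 0.11, adjusted p = 0.00317). For Mrpl40, the second set read 122.7 and 116.1 against 65.9 and 88.1 (0.65 ± 0.23, adjusted p = 0.04). With the mean of all sets of a gene, 17 members were called higher (15.1% of all genes) and 5 lower (19.2%). The differences of Mrpl37, whose other sets were dim, and of Mrps26 were then 0.49 (adjusted p = 0.135) and 0.57 (adjusted p = 0.0724).

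**Figure D4:**
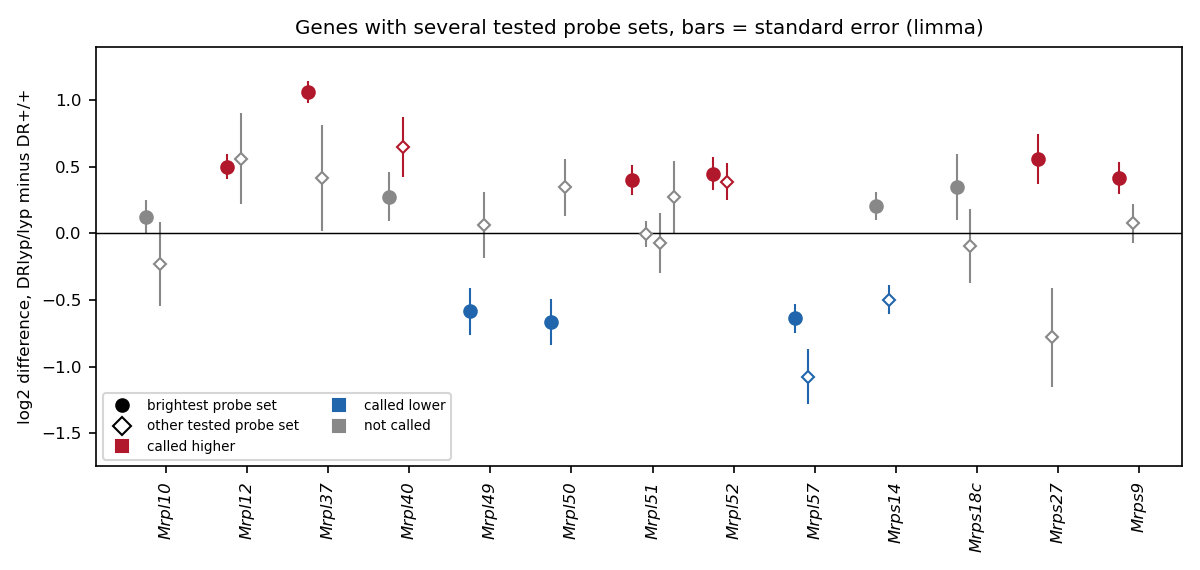
Log2 difference between the pools (y axis, DRlyp/lyp minus DR+/+) for each tested probe set of the 13 genes that have several (x axis); filled circles are the brightest set, open diamonds the others, bars are standard errors, and red and blue mark sets called higher and lower. Both Mrpl57 sets lie below 0 (-0.64 and -1.08), whereas the sets of Mrps14 lie on opposite sides (0.20 and -0.50).

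For genes that serve the mitochondrial ribosome, the counts are to be read against the 20.9% of all genes called higher and 21.1% called lower. Of 5 ribosomal proteins that carry other symbols, Chchd1 was higher at 1001.5 and 1110.8 against 645.1 and 845.0 (0.51, adjusted p = 0.00539), and Ptcd3, a pentatricopeptide repeat protein of the small subunit, was lower at 1230.4 and 1060.9 against 1887.8 and 1855.0 (-0.71, adjusted p = 5.4e-05). Of 10 translation factors and membrane proteins tested, 2 (20%) were called higher and 2 (20%) lower (median 0.06), near the shares over all genes. Letm1, an inner membrane protein (0.77), and Tufm, the elongation factor that brings aminoacyl-tRNA (0.45), were higher, and Tsfm, which recycles Tufm (-0.55), and the insertase Oxa1l (-0.33) were lower. Of 16 mitochondrial tRNA synthetases and amidotransferase subunits Nars2 was higher (0.68, adjusted p = 0.000148) and Gatc lower (-0.73, adjusted p = 0.0448).

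Of 22 assembly and rRNA modification genes, 4 (18.2%) were called higher and 4 (18.2%) lower (median -0.11), again near the shares over all genes. Malsu1, an assembly factor of the large subunit (0.57), and Rbfa, a maturation factor of the small subunit (0.46), were among the higher ones. The helicase Dhx30 (-0.68) and Mterf4, which guides rRNA methylation (-0.67), were among the lower ones. Of 14 genes of mitochondrial DNA replication, transcription and mRNA stability none was called higher and 2 were called lower (median -0.10). At an unadjusted p under 0.05 limma also gave 0 higher and 2 lower, with no share of all genes counted at that threshold. Tfam, which packs mitochondrial DNA and acts in its transcription, read 500.2 and 564.4 against 779.2 and 705.0 (1.39-fold lower, adjusted p = 0.0038). Ssbp1, the single-strand binding protein of that DNA, read 264.2 and 362.9 against 558.8 and 561.8 (1.81-fold lower, adjusted p = 0.000739). Genes encoded in mitochondrial DNA were not analysed here.

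Cytosolic ribosomal proteins and the respiratory chain also had more higher than lower calls. Over all genes tested, 20.9% were called higher and 21.1% lower. Of 52 cytosolic ribosomal protein genes 29 (55.8%) were called higher and 5 (9.62%) lower, with a median of 0.25, and of 71 nuclear oxidative phosphorylation genes 30 (42.3%) were called higher and 12 (16.9%) lower (median 0.17). The members' values, 34.2%, 9.59% and 0.20, lay beside these, and the differences between the lists were not tested.

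**Figure D5:**
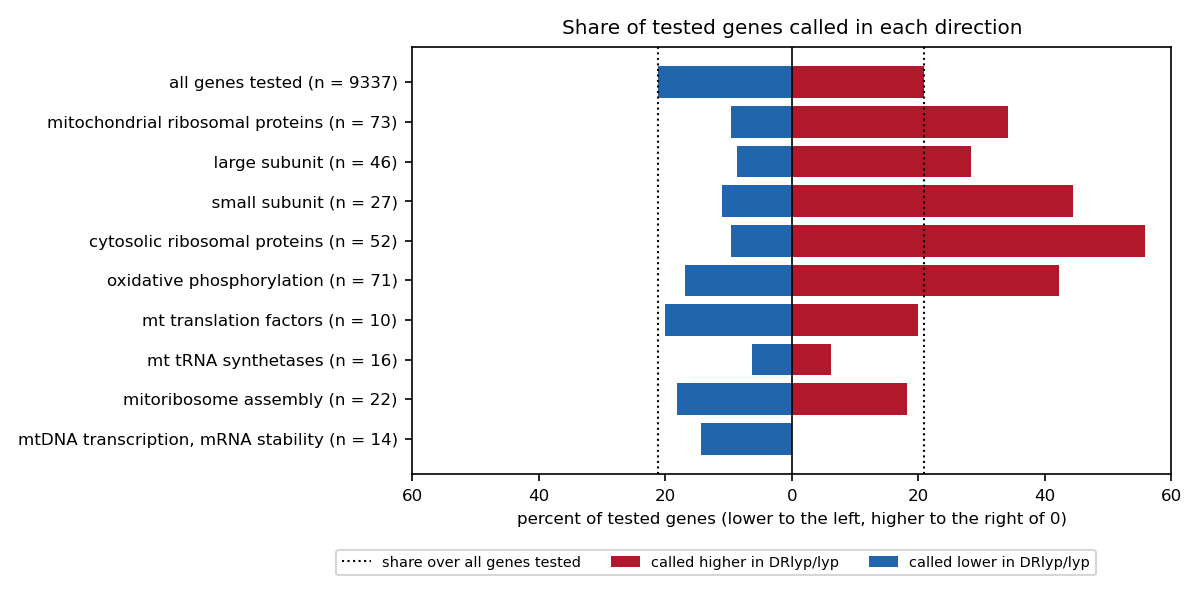
Percent of tested genes called lower (left of 0) and higher (right of 0) in the DRlyp/lyp pool for the mitochondrial ribosomal proteins, their subunits and related gene lists (y axis, with the number of genes tested); dotted lines mark the shares over all genes tested, 20.9% and 21.1%. Ribosomal and oxidative phosphorylation genes lie past the right line, and translation factors, tRNA synthetases, assembly and transcription genes do not. The bar for translation factors also holds the membrane proteins Letm1 and Oxa1l, and that for transcription also holds genes of mitochondrial DNA replication.

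Promoter sequences were searched for the motifs of 3 regulators known to act on nuclear genes of mitochondria. Of the 3 regulators themselves, Nrf1 was called. Nrf1 read 227.7 and 213.5 in the DRlyp/lyp pool against 437.0 and 340.1 (1.75-fold lower, adjusted p = 0.00127). The ETS factor Gabpa read 339.9 and 365.2 against 354.7 and 440.3, with the pools overlapping (-0.17, adjusted p = 0.356), and Yy1 2099.4 and 2119.8 against 1857.7 and 1891.3 (0.17, adjusted p = 0.0527); neither was called. Among other regulators, Gabpb1, the partner of Gabpa, read 366.9 and 375.9 against 197.6 and 245.1 (1.69-fold higher, adjusted p = 0.00156), the coactivator Pprc1 was higher (0.91) and Myc was lower (-0.88). Of the 73 genes, 59 had a RefSeq promoter (GRCr8), 250 bases before to 50 after the start, searched on both strands. A match is a description of letters, not a binding site.

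The YY1 core AAGATGGC was in 14 of 59 members (23.7%), against 3.62% of all 27457 genes in the promoter table, and 10 of its 14 matches lay after the start. Its letters hold ATG, and whether that is the start codon was not examined. It was in 5 of 20 higher, 3 of 6 lower and 6 of 33 uncalled members. The windows of 30 bases below show it in capitals, on the gene's strand, for the 2 genes with the largest higher differences and for 3 called lower; the motif is shared across both directions.
Mrps6 (chr11:44778653-44778682, plus strand): aagattccatcAAGATGGCagccaagaccc
Mrpl37 (chr5:127074943-127074972, minus strand): ctgcccgggcaAAGATGGCggcgtccaggt
Mrps18b (chr20:2843023-2843052, plus strand): ggatgtgcgacAAGATGGCtgcctccttgc
Mrpl50 (chr5:68668043-68668072, minus strand): ggagcttgtcgAAGATGGCggcgctgtgtg
Mrpl49 (chr1:212779293-212779322, minus strand): ttggaggagcaAAGATGGCagcaaatgtat

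The ETS core CCGGAAG was in 20 of 59 members (33.9%), against 9.63% of all genes. It was in 10 of 20 higher, 2 of 6 lower and 8 of 33 uncalled members. The NRF1 palindrome, its own reverse complement and given by the capitals of the last pair of windows, was in 4 members (6.78%), against 0.954% of all genes, 1 of them lower, 3 uncalled and none of the 20 higher. Matches of different motifs did not overlap in any member. The windows show the ETS core in capitals in Mrpl23 and Mrpl36 (higher) and Mrpl57 (lower), and then the NRF1 palindrome in Mrps18b (lower) and in Mrpl17, which was not called (0.02, adjusted p = 0.902).
Mrpl23 (chr1:207116852-207116881, plus strand): tagcgcggcctCCGGAAGcgagggggcgct
Mrpl36 (chr1:31795178-31795207, minus strand): gctttatctccCCGGAAGcatgagccttag
Mrpl57 (chr15:36086417-36086446, plus strand): aacgctgctagCCGGAAGcagcgcgcgtgc
Mrps18b (chr20:2842976-2843005, plus strand): tccttgtccgGCGCATGCGCagtcgttctt
Mrpl17 (chr1:169575735-169575764, minus strand): aggctctgatGCGCATGCGCaagcacccct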

How the data were processed

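The authors deposited 1 linear intensity per probe set and array of an Affymetrix rat genome array, with 2 rounds of amplification from about 50 ng of RNA, per the series' design text. No source used here states their program or scaling. The 2% trimmed mean was 150.1 on all 4 arrays, and the values were kept. Groups came from the sample titles. Of 31099 probe sets, 57 controls were left out. Before taking log2, a floor of 6.8 (25th percentile of all values) was set. The 16047 probe sets exceeding 28.4, the median of all values, on 2 or more arrays entered limma (3.58.1, R 4.3.3; lmFit, eBayes with intensity trend, 2 residual degrees of freedom), with two-sided p-values adjusted by Benjamini-Hochberg. A fold is the ratio of geometric means on the floored scale. The fit was tested on simulated data. Symbols are from the platform annotation of 2016; all 73 Entrez numbers were found in RefSeq (GRCr8), with 0 symbols changed. No detection calls were used.

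The members, lists and tests were chosen with earlier results of these data known. Given with all 4 values were, per subunit, up to 8 called members each way with the largest differences and no overlap between pools, members whose probe sets were called in opposite directions, the Mrps18 genes, Mrpl12, Mrps12 and the 3 members closest to 0; from each other list, up to 2 called genes each way, or the brightest where none was called. Mrpl10, Mrpl45, Mrpl17, Gabpa, Yy1, the mast cell markers and the members named beside the threshold or for their other probe sets were chosen after their values were seen, as were the motifs. Figures were drawn with matplotlib 3.10.9.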

Additional observations from a re-analysis of the deposited data

How the results depend on the processing

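In all, 13 alternatives were run, among them each of the 4 arrays left out. No called member changed sign under quantile normalization or median centring; Mrps27 did with a gene's probe sets averaged (-0.19). The 25 higher and 7 lower calls became 12 and 10 with median centring, 9 and 0 without a filter, and 9 and 2 without an intensity trend. With median centring and without an intensity trend, the share of members called higher was only slightly above that of all genes. The cause of these changes was not tested. At an unadjusted p under 0.05, limma without a filter gave 24 members higher and 7 lower, with no share of all genes counted at that threshold. With an array left out there were 11 to 21 higher and 3 to 7 lower calls. The members' median of 0.20 was 0.089 with median centring, 0.15 with probe sets averaged, and 0.14 to 0.23 with an array left out. The large minus small subunit gap of -0.12 was -0.076 with the filter at the 75th percentile, -0.063 with probe sets averaged, -0.17 with subunits by structure, and -0.064 to -0.17 with an array left out. With the replicate number as a block, 26 members were higher and 8 lower and the median was 0.20. Deviations of same-numbered arrays from their group means correlated at 0.043 over the tested probe sets. With 2 arrays a pool, a correlation over all probe sets cannot show whether same-numbered arrays were processed together. Members near 0 changed sign: Mrpl13 (0.033 with quantile normalization, -0.073 to 0.045 with an array left out), Mrpl15 (-0.094 with median centring, -0.0030 to 0.038) and Mrps28 (0.021 with quantile normalization, -0.16 to 0.13). Mrps18c, at 0.35 and not called, was -0.085 with probe sets averaged. With 2 arrays a pool and no detection calls, the number of arrays limits the precision.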
